A study of Mus musculus with 12 samples.

Results

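The cadherin and protocadherin genes described here are the 92 protein-coding genes of the RefSeq annotation of GRCm38 whose symbol is Cdh followed by a number or begins with Pcdh, out of 21887 protein-coding genes placed on autosomes or sex chromosomes. They fall into 5 type I cadherins, 13 type II cadherins, 5 other cadherins, 12 protocadherins that stand alone in the genome and 57 protocadherins of the chromosome 18 clusters. The data are peak lists of 6 chromatin immunoprecipitates made with an antibody against MACF1 from MC3T3-E1, a mouse osteoblast line. Of these, 3 came from control cells (labels 1, 2 and size3) and 3 from cells with MACF1 knockdown (the same labels); values of a group are given in this order. Each was called against its own input library. The labels say neither how MACF1 was knocked down nor whether each library had a culture of its own. The p-values therefore compare these libraries only, and the spread among them may be technical. Genomic DNA holds no expression values, so neither the knockdown nor the osteoblast label was checked with marker genes.

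Cadherins are calcium-dependent adhesion proteins whose extracellular repeats bind the same or a related cadherin on the next cell. The cytoplasmic tails of classic cadherins bind p120 catenin and beta-catenin, and alpha-catenin joins this complex to actin. Protocadherins lack the classic catenin-binding tail, and the clustered ones give neurons a combinatorial surface identity. In osteoblasts, N-cadherin (Cdh2) and cadherin-11 (Cdh11) are the main cadherins. MACF1 itself is a giant crosslinker of microtubules and actin that also acts in Wnt signalling. The comparison of the 2 groups asks where this antibody recovered DNA with and without the knockdown.

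A peak was assigned to a gene when any base of it lay in the gene or within 5 kb of it. The 6 lists held 195 peaks at these genes, in 185 separate regions, and 175 of the regions were called in 1 library only. Control 1, control 2 and control size3 had 3, 0 and 12 such peaks. Knockdown 1, knockdown 2 and knockdown size3 had 98, 20 and 62. All 3 knockdown libraries therefore lay above all 3 control libraries. The lists themselves differed in the same direction, from 198 to 2196 peaks in control and from 4513 to 21398 in knockdown libraries. Reads after duplicate removal ran from 10698067 to 33085606 in the control and from 5575205 to 18454330 in the knockdown immunoprecipitates. Redundant rates were 0.16 to 0.25 in control 1 and 2, 0.51 to 0.65 in knockdown 1 and 2, and 0.01 to 0.02 in the size3 libraries. The part of depth and redundancy in the difference was not tested.

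The share of the 92 genes with a peak was 2.17%, 0.0% and 6.52% in the control libraries and 63.0%, 46.7% and 55.4% in the knockdown libraries. The group means were 2.90% ± 3.32 (SD, n = 3) and 55.1% ± 8.16 (SD, n = 3), a difference of 52.2 percentage points (exact two-sided permutation p = 0.1, the smallest that 3 against 3 libraries allow). The difference was 60.9, 46.7 and 48.9 points within label 1, label 2 and size3. With each list cut to the 198 peaks of best score, the length of the shortest list, the difference turned to -0.362 points (0.725% in control and 0.362% in knockdown libraries, exact permutation p = 1.00). It was 12.3 points among peaks with a score of at least 100 (exact permutation p = 0.4), which no peak of these genes in knockdown 2 reached. Among peaks with a fold of at least 10 it was 8.70 points (exact permutation p = 0.2). Many clustered genes share their bases, so that 1 peak counts for up to 21 genes at once. For the 35 genes outside the clusters, 2, 0 and 6 had a peak in the control libraries, and 24, 10 and 16 in the knockdown libraries. The difference of group means for these 35 was 40.0 points.

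Relative to the length of each list, the share of peaks at these genes did not differ between the groups beyond their spread. Peaks at them made up 0.389% of the list in control 1 (95% Wilson interval 0.132 to 1.14), 0.0% in control 2 (0.0 to 1.90) and 0.546% in control size3 (0.313 to 0.953). The share was 0.458% in knockdown 1 (0.376 to 0.558), 0.443% in knockdown 2 (0.287 to 0.684) and 0.352% in knockdown size3 (0.275 to 0.452). Group means of 0.312% ± 0.281 and 0.418% ± 0.0571 (SD, n = 3) differed by less than the spread of the control libraries (exact two-sided permutation p = 0.8). Without control 2, which has the shortest list, the difference turned to -0.0497 points. It was also negative with lists of equal length, at -0.168 points, and at a fold of at least 10, at -0.229 points.

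The same count over all protein-coding genes gives the background. A peak in the gene or within 5 kb was found for 1.38%, 0.315% and 5.49% of all genes in the control libraries, and for 43.7%, 7.95% and 35.5% in the knockdown libraries. The 35 genes outside the clusters, at 5.71%, 0.0% and 17.1% in the control libraries and 68.6%, 28.6% and 45.7% in the knockdown libraries, lay above it in all libraries but control 2. These genes are long, with a median span of 123 kb against 17.2 kb over all genes. Among all 2429 genes of at least 100 kb, the shares were 7.16%, 1.65% and 17.9% in the control libraries and 77.6%, 30.8% and 68.1% in the knockdown libraries. The 19 members of that length outside the clusters stood at 10.5%, 0.0% and 26.3%, and at 73.7%, 42.1% and 52.6%, below long genes in control 2, knockdown 1 and knockdown size3 and above them in the other 3 libraries. In any library, 27 of the 35 had a peak (77.1%), against 58.7% of all genes and 89.5% of long genes.

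**Figure D1:**
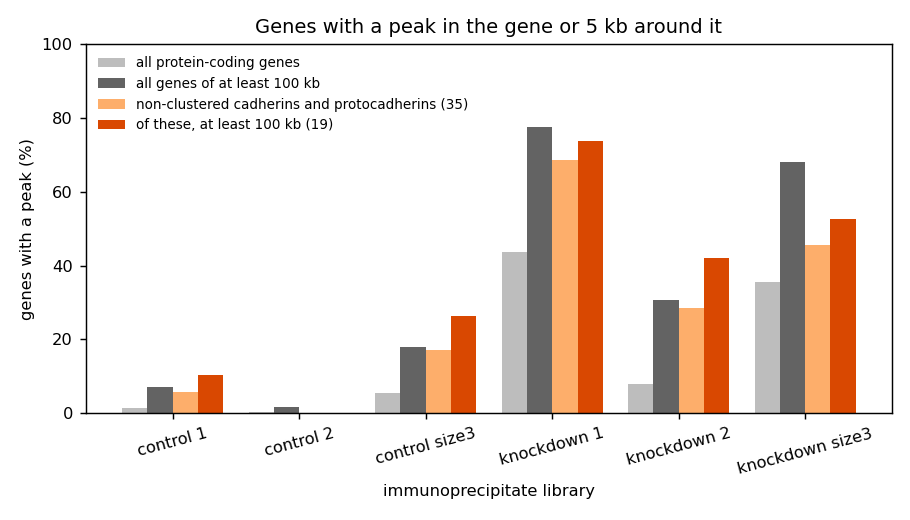
Percent of genes with a peak in the gene or 5 kb around it, in each of the 6 immunoprecipitates. Bars stand for all protein-coding genes, all genes of at least 100 kb, the 35 cadherins and protocadherins outside the clusters and the 19 of these of at least 100 kb; the last stand at 73.7% against 77.6% of all long genes in knockdown 1 and at 52.6% against 68.1% in knockdown size3, and no error bar applies to a single list.

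Peaks were unevenly spread within the family. Per Mb of gene and flank, knockdown 1 had 20.9 peaks at type I cadherins and 23.2 at the other cadherins, against 3.86 at type II cadherins and 3.83 at single protocadherins. Knockdown size3 had 16.3, 10.7, 3.86 and 1.53 in the same order. All protein-coding genes had 12.5 and 10.1 peaks per Mb in these 2 libraries, and genes of at least 100 kb had 8.93 and 7.47. In both libraries type I and other cadherins lay above both backgrounds and type II cadherins and single protocadherins below them. Knockdown 2 had another order, with 1.16 peaks per Mb at type I, 1.70 at other, 2.32 at type II cadherins and 1.28 at single protocadherins, against 1.77 at all and 1.71 at long genes. Without Cdh4, type I cadherins had 15.3 peaks per Mb in knockdown 1 and 7.65 in knockdown size3. Without Cdh23, the other cadherins had 16.1 and 3.67, so that in knockdown size3 they lay below both backgrounds and type I cadherins near that of long genes. Only 3 genes, Cdh4, Cdh13 and Cdh23, held 90 of the 195 peaks (46.2%): 50 of 98 in knockdown 1, 29 of 62 in knockdown size3, 2 of 20 in knockdown 2 and 9 of 12 in control size3.

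**Figure D2:**
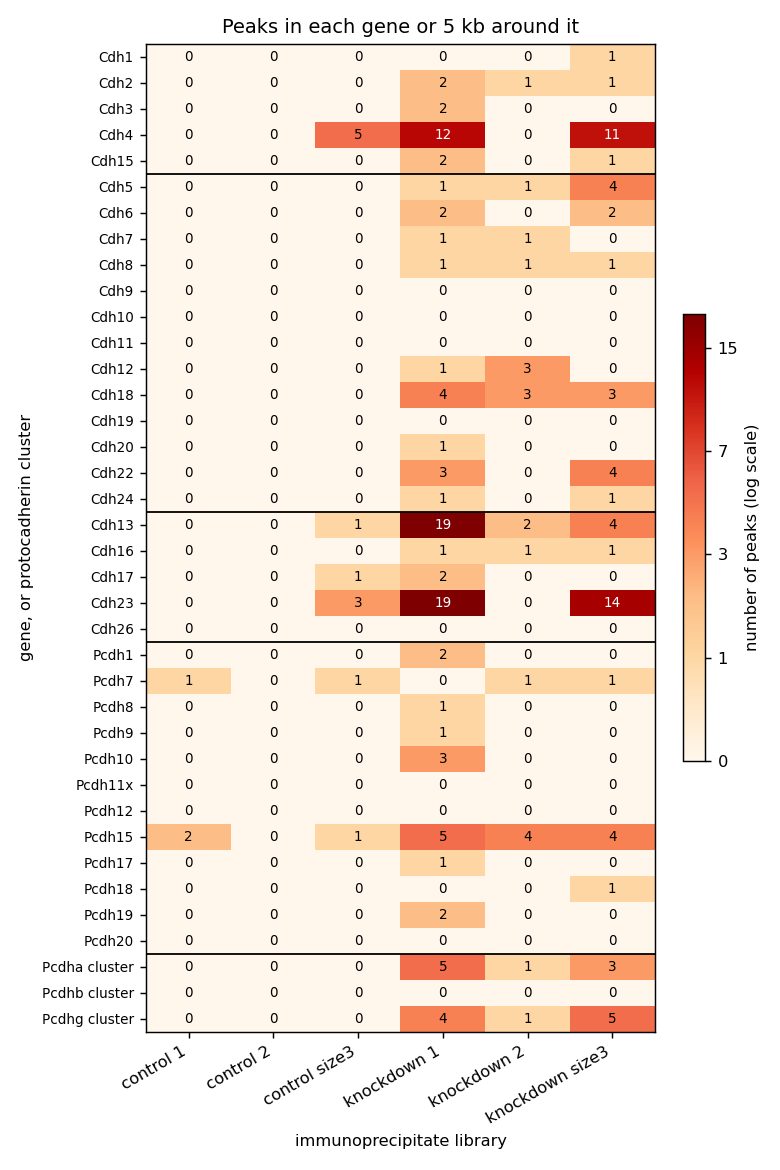
Number of peaks in each gene or 5 kb around it (rows, grouped by class, with the 3 protocadherin clusters at the bottom) in each of the 6 libraries (columns), with color on a log scale. Cdh4, Cdh13 and Cdh23 carry 12, 19 and 19 peaks in knockdown 1, while Cdh9, Cdh10, Cdh11 and the Pcdhb cluster carry 0 in every library.

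Among type I cadherins, classic adhesion molecules of adherens junctions, all 5 genes had a peak in a knockdown library and 1 in a control library. In any library, 58.7% of all genes and 89.5% of genes of at least 100 kb had one, and 5 genes are too few to show a difference. Cdh2, which encodes N-cadherin, lies on chromosome 18 and had no control peak, 2 peaks in knockdown 1 and 1 each in knockdown 2 and knockdown size3. A region across its lower-coordinate end was called in knockdown 1 (19 reads, fold enrichment over input 8.24) and in knockdown size3 (11 reads, fold 10.4), with summits 9 bp apart. The wider peak of knockdown 1, with 179 reads and a fold of 6.53, lay 2050 bp inside the other end, and the knockdown 2 peak held 8 reads deep inside the gene. The fold and the read number are the values of the authors' peak caller for each peak, and folds are not compared between lists.

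Cdh4, the retinal cadherin gene (chromosome 2, 179442423 to 179899377), had 0, 0 and 5 peaks in the control libraries and 12, 0 and 11 in the knockdown libraries. The control size3 peaks held 15 to 21 reads, with folds of 7.99 to 11.7 and a false discovery rate of 66.4% to 92.4%, which the caller obtains by swapping the immunoprecipitate and its input. The rates were 1.70% to 3.92% in knockdown 1 and 1.63% to 7.20% in knockdown size3. Cdh4 thus had peaks in the same 3 libraries as Cdh23. None of its knockdown 1 peaks overlapped one of knockdown size3, as for most peaks of these 2 lists. One of its knockdown 1 peaks (179711356 to 179713869, 105 reads, fold 3.99) contained a peak of control size3 (21 reads, fold 9.23). At its lower end, knockdown size3 had a peak at 179442116 to 179443157, with the summit 485 bp inside the gene, 24 reads and a fold of 5.67. At its upper end, knockdown 1 had one at 179896364 to 179899825, with 185 reads and a fold of 4.33.

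Cdh1, the E-cadherin gene of epithelia (chromosome 8, 106603350 to 106670247), had 1 peak in knockdown size3 (106605254 to 106605671, 13 reads, fold 7.90) and none elsewhere. Cdh3, the P-cadherin gene next to it (106510852 to 106556911), had 2 peaks in knockdown 1, of 32 and 41 reads, and none elsewhere. Cdh15, the muscle cadherin gene (chromosome 8, 122848374 to 122867397), had 2 peaks in knockdown 1, of 225 and 241 reads, and 1 in knockdown size3. The knockdown size3 peak (122852129 to 122853131, 25 reads, fold 5.58) lay inside the knockdown 1 peak at 122849771 to 122853805 (fold 3.01), with summits 2001 bp apart.

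Type II cadherins, which bind through a different interface from type I, had no control peak at any of the 13 genes. The control libraries had one at 1.38%, 0.315% and 5.49% of all genes, so 13 genes are too few for a count of 0 to show a difference. In the knockdown libraries, 9, 5 and 6 of the 13 had one. The shares there were 43.7%, 7.95% and 35.5% of all genes, and 77.6%, 30.8% and 68.1% of genes of at least 100 kb. The median span of the 13 was 153 kb. Cdh11, the cadherin most closely linked to osteoblasts (chromosome 8, 102632095 to 102785493), had none in any library. The nearest peak lay 964 kb, 204 kb and 360 kb away in the knockdown libraries, and 44796 kb and 4110 kb away in control 1 and size3. Control 2 had no peak on that chromosome. Cdh9, Cdh10 and Cdh19 had none in any library either. Of the 19 long members outside the clusters, 4 were without a peak (Cdh9, Cdh10, Cdh11 and Pcdh11x, 21.1%), against 256 of the 2429 long genes (10.5%).

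Cdh18, expressed mainly in the nervous system (chromosome 15, 22548898 to 23477491), had 4, 3 and 3 peaks in the knockdown libraries. The peak with the highest fold of the family in knockdown 1 lay here, at 22557731 to 22558408, with 35 reads and a fold of 11.7. Another region, 23383169 to 23383632, had peaks of knockdown 1 (20 reads, fold 7.99) and knockdown size3 (11 reads, fold 10.4), with summits 21 bp apart. Cdh8, a cadherin of neural circuits (chromosome 8, 99024471 to 99417666), had 1 peak in each knockdown library. Those of knockdown 1 (99415152 to 99417020, 107 reads, fold 4.58) and knockdown size3 (99415229 to 99415827, 12 reads, fold 8.09) overlapped at the start of the gene, with summits 71 bp apart, while that of knockdown 2 (8 reads) lay at the other end.

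Cdh22 (chromosome 2, 165111501 to 165234924) had 3 peaks in knockdown 1 and 4 in knockdown size3. None of them overlapped, as for most peaks of these 2 lists. Its density of 5.25 peaks per 100 kb over all libraries ranked 246 among the 2429 long genes. Cdh5, the endothelial cadherin gene (chromosome 8, 104101613 to 104144504), had 1, 1 and 4 peaks in the knockdown libraries, and Cdh6 had 2 in knockdown 1 and 2 in knockdown size3. Cdh12 (chromosome 15, 20448878 to 21598421) had 1 in knockdown 1 and 3 in knockdown 2, and Cdh7 had 1 in each of the same libraries. Cdh24 had 1 in knockdown 1 and 1 in knockdown size3, and Cdh20 had 1, in knockdown 1.

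The other cadherins differ from the classic ones in their tails or number of repeats. Cdh23, which forms tip links of hair cells with Pcdh15 (chromosome 10, 60302748 to 60696513), had the most peaks of the family: 0, 0 and 3 in the control libraries and 19, 0 and 14 in the knockdown libraries. Its total of 36 ranked 3 among the 2429 long genes, and its density of 8.92 per 100 kb ranked 27, where the median long gene had 1.83. Folds ran from 2.80 to 6.61 in knockdown 1 (47 to 394 reads) and from 4.33 to 7.94 in knockdown size3 (11 to 45 reads). The control size3 peaks had a false discovery rate of 59.6% to 79.7%.

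Most peaks of Cdh23 lay apart from each other. Its region at 60495022 to 60496738 was called in knockdown 1 (91 reads, fold 3.96) and knockdown size3 (33 reads, fold 5.21), and that at 60643361 to 60646801 in the same libraries (197 reads, fold 3.40, and 45 reads, fold 5.98). A control size3 peak of 19 reads and a fold of 10.7 lay inside the knockdown 1 peak at 60366731 to 60372300. The best score of knockdown 1 in the family, 282 on the scale of 10 times the negative log10 p, belonged to the peak at 60684009 to 60688240, with 394 reads and a fold of 3.99; its false discovery rate was 50%.

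Cdh13, which encodes T-cadherin, a receptor anchored by a lipid and without a cytoplasmic tail (chromosome 8, 118140017 to 119324929), had 0, 0 and 1 peaks in the control libraries and 19, 2 and 4 in the knockdown libraries. None of the 26 overlapped a peak of another library, and most peaks of the whole knockdown 1 and knockdown size3 lists did not overlap each other either. The Cdh13 peaks of knockdown 1 held 17 to 77 reads, against 47 to 394 at Cdh23 in the same list. Their median fold was higher, at 6.68 against 3.98. Over its span of 1185 kb, Cdh13 had 2.18 peaks per 100 kb in all libraries, rank 1071 of 2429. Cdh16, a kidney cadherin gene, had 1 peak in each knockdown library, and Cdh17, an intestinal one, had 2 in knockdown 1 and 1 in control size3. Cdh26 had none.

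**Figure D3:**
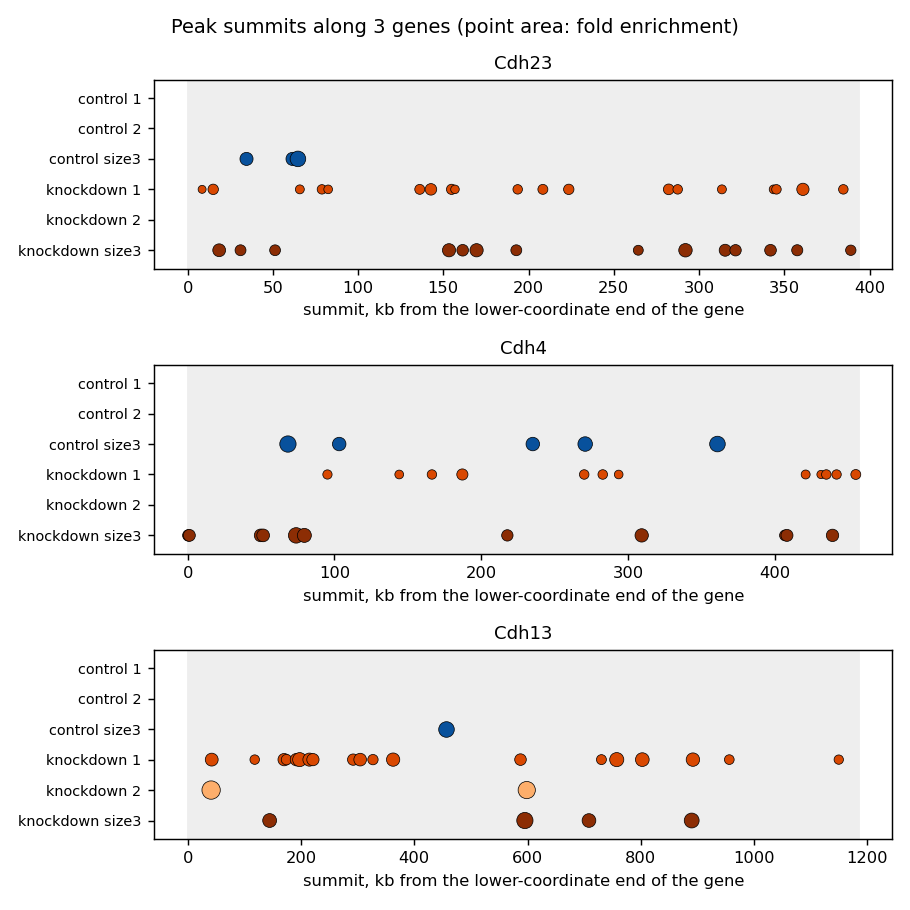
Peak summits along Cdh23, Cdh4 and Cdh13, in kb from the lower-coordinate end of the gene (gray), by library; the area of a point is proportional to the fold enrichment. Summits lie along the whole of each gene, with 19, 12 and 19 in knockdown 1 and 14, 11 and 4 in knockdown size3.

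Among the 12 single protocadherins, Pcdh15 and Pcdh7 had peaks in most libraries. Pcdh15, the partner of Cdh23 in tip links and the longest gene of the family (chromosome 10, 73096277 to 74649831), had 2, 0 and 1 peaks in the control libraries and 5, 4 and 4 in the knockdown libraries. None overlapped one of another library, and most peaks of the whole knockdown 1 and knockdown size3 lists did not overlap each other either. The 2 peaks of control 1 held 24 and 30 reads with folds of 4.28 and 5.00, and the 4 of knockdown 2 held 8 or 9 reads each. The highest fold of knockdown size3 in the family, 12.7 with 13 reads, was at 74621082 to 74621614. Pcdh7 (chromosome 5, 57716145 to 58133236) had 1 peak in each of control 1, control size3, knockdown 2 and knockdown size3, at 4 different places, and none in knockdown 1. The one of knockdown 2 (57947268 to 57947556) had a fold of 20.8 from 9 reads, which was shared with a Cdh18 peak as the highest of that list in the family.

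The other single protocadherins had peaks in 1 library or none. Pcdh10 (chromosome 3, 45378398 to 45434579), a gene of brain wiring, had 3 peaks in knockdown 1. Pcdh1 on chromosome 18 and Pcdh19, whose loss causes an X-linked epilepsy, had 2 each in knockdown 1. Pcdh8, Pcdh9 and Pcdh17 had 1 each in knockdown 1, and Pcdh18 had 1 in knockdown size3. No peak was called at Pcdh11x, Pcdh12 or Pcdh20. Where these genes had a peak in knockdown 1 it was often wide, with 3898 bp at Pcdh8 (230 reads) and 3134 bp at Pcdh17 (139 reads), against a median of 990 bp over that list.

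The chromosome 18 clusters hold 14 Pcdha, 22 Pcdhb and 21 Pcdhg genes over 259 kb, 256 kb and 180 kb. Each Pcdha and Pcdhg gene begins with its own long exon, which is spliced to exons common to the cluster, so all 14 and all 21 genes share their upper end, while the Pcdhb genes stand apart. Counted once, 19 peaks fell in these clusters: 5, 1 and 3 at Pcdha and 4, 1 and 5 at Pcdhg in the knockdown libraries. The Pcdhb cluster and the 3 control libraries had 0. The windows around the Pcdhb genes cover 0.203 Mb, beside 0.269 Mb at Pcdha and 0.190 Mb at Pcdhg. Per Mb, the 3 clusters had 13.6, 3.02 and 12.1 peaks in the knockdown libraries, against 12.5, 1.77 and 10.1 over all protein-coding genes. In the control libraries all genes had only 0.302, 0.0601 and 1.10 peaks per Mb. At such densities, windows of 0.661 Mb are too small for a control count of 0 to show a difference.

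Summits in the Pcdha and Pcdhg clusters lay most often 2 to 3 kb past the beginning of a gene. Measured from the lower end of the last gene begun, 11 of the 19 lay 2 to 3 kb past it (57.9%), from 2002 to 2752 bp, where 7.98% of the bases of these clusters lie. The bins from 0 to 1, 1 to 2 and 3 to 4 kb, of the same 7.98% each, held 1, 0 and 1 summits. Knockdown 1 had 6 of the 11, at Pcdha2, Pcdha3, Pcdha9, Pcdha10, Pcdhga1 and Pcdhga12. Knockdown size3 had 5, at Pcdha8, Pcdhac2, Pcdhga12, Pcdhgc3 and Pcdhgc4. This distance was noticed in these data and has no test. Summits of both libraries lay in these 2 to 3 kb at Pcdhga12 alone, with 62 reads and a fold of 5.26 in knockdown 1, 32 reads and a fold of 5.61 in knockdown size3, and summits 5 bp apart. At Pcdhgc3 the knockdown size3 peak lay inside a wide knockdown 1 peak whose summit was 2328 bp away. A further 2 summits of knockdown 1 lay just before a gene, 84 bp before Pcdhac1 (119 reads, fold 3.52) and 240 bp before Pcdhgc3 (173 reads, fold 3.34). Both peaks of knockdown 2, of 8 and 10 reads, lay 30852 and 17616 bp past a beginning.

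**Figure D4:**
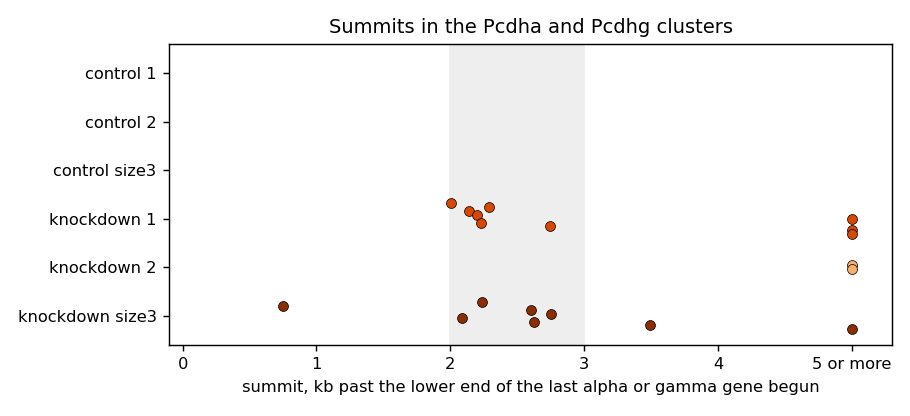
Distance in kb from the lower end of the last Pcdha or Pcdhg gene begun to each of the 19 summits in these clusters, by library; points at 5 or more are drawn at 5, the vertical offset within a library only separates points, and the gray band marks 2 to 3 kb. The band holds 6 summits of knockdown 1 and 5 of knockdown size3, and no control library has a summit in the clusters.

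Transcription starts were known from the RefSeq promoter windows, 250 bases before to 50 after a start, for 22 of the 92 genes. For the others either gene end was used. A start was known for 23.9% of the family but 79.9% of all genes, so the family and the background are measured in part by different rules, and 7 of the 17 genes below had a summit near an end that may not be the start. By that rule 17 of the 92 genes had a summit within 1 kb of a start in any library. In the control libraries the number was 0, where 0.0274%, 0.0% and 0.452% of all genes had one. The knockdown libraries had 11, 0 and 8, against 16.0%, 0.192% and 9.97% of all genes. The 92 genes thus stood at 12% and 8.70% in knockdown 1 and knockdown size3, below the background. The 35 genes outside the clusters stood above it, at 25.7% (9 genes) and 20.0% (7 genes). Among the 22 with a known start, 7 had a summit near it in knockdown 1 (31.8%, where all genes with a known start had 15.5%) and 4 in knockdown size3 (18.2%, where all such genes had 9.61%). Without knockdown 1 the number of the 92 with such a summit in any library was 8, and without knockdown size3 it was 11. Of the genes with a known start, Cdh8 alone had such a summit in both libraries. Cdh2, without a known start, was counted in both through its lower-coordinate end, which may not be its start.

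Of the 22 genes with a promoter window, 8 had a peak over it in knockdown 1 (36.4%), against 16.7% of the 17492 genes with a window. In knockdown size3 it was 3 (13.6% against 8.21%), and in any library 11 (50.0% against 22.7%). No promoter window of the family lay under a peak of a control library or of knockdown 2. Of all 21263 windows, 0.0%, 0.00470% and 0.207% did in the control libraries and 0.0235% in knockdown 2. At such shares, the family's 25 windows are too few for a count of 0 to show a difference. None of the 25 lay under peaks of both knockdown 1 and knockdown size3, and the share of all windows under both was not counted. The windows under a peak of knockdown 1 belong to Cdh6, Cdh7, Cdh8, Cdh12, Cdh22, Pcdh8, Pcdh9 and Pcdh10. Those under a peak of knockdown size3 belong to Cdh24, Pcdh15 and Pcdh18.

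The windows under a peak held more CpG dinucleotides, the sites of DNA methylation that gather in CpG islands. Over 14 windows of 11 genes under a peak the median was 18.5 CpG (4 to 38) with 62.3% G and C, and over 11 windows of 11 genes under none it was 8.00 (2 to 26) with 54.0%. Over all 21263 windows, those under a peak had a median of 23.0 CpG and 63.3% G and C, and those under none 9 and 54.3%. At or above the median of 13 CpG, 10 of 13 windows of the family lay under a peak (76.9%), against 33.0% of all such windows. Below it, 4 of 12 did (33.3%), against 9.92%. Cdh7 has 3 windows and Pcdh9 has 2 that overlap, so these windows are not independent.

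The sequences below, from RefSeq (GRCm38.p6), run 5′ to 3′ along the gene with CpG in capitals, and are shown as examples of windows under a peak with many and with fewer CpG. The window of Cdh22 (chr2:165234688-165234987, minus strand) has 38 CpG, the most of the family, and lies under a knockdown 1 peak of 312 reads and a fold of 3.52. That of Cdh24 (chr14:54641315-54641614, minus strand) has 30, under a knockdown size3 peak of 24 reads and a fold of 8.59. That of Pcdh10 (chr3:45378148-45378447, plus strand) has 24, under a knockdown 1 peak of 143 reads and a fold of 4.54. That of Pcdh18 (chr3:49757267-49757566, minus strand) has 23, under a knockdown size3 peak of 34 reads and a fold of 6.79. That of Cdh8 (chr8:99416422-99416721, minus strand) has 21. The window of Cdh12 (chr15:21111202-21111501, plus strand) has 9 and yet lies under a knockdown 1 peak, of 27 reads and a fold of 8.35.
Cdh22 promoter: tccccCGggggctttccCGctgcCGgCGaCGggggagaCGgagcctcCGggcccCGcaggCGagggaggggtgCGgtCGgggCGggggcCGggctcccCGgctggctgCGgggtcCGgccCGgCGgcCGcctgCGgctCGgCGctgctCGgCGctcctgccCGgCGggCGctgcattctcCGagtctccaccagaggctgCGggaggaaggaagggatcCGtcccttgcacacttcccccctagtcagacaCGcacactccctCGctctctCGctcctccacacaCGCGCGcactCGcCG
Cdh24 promoter: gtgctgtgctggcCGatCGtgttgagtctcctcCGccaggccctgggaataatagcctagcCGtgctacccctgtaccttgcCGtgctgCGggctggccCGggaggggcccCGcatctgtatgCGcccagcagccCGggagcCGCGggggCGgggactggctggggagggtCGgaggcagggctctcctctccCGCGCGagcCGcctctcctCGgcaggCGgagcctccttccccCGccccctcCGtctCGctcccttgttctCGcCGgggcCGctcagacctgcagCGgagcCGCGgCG
Pcdh10 promoter: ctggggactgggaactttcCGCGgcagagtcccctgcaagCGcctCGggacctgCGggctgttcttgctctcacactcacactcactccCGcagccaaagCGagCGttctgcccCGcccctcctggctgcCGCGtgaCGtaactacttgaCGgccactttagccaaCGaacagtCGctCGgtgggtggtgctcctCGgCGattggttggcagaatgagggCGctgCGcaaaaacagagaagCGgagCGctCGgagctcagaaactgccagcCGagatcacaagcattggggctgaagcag
Pcdh18 promoter: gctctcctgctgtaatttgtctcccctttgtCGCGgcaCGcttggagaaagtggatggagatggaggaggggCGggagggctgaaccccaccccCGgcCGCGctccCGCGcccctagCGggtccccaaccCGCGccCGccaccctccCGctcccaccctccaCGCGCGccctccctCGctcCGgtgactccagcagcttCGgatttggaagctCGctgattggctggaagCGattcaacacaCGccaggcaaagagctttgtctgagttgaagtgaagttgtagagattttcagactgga
Cdh8 promoter: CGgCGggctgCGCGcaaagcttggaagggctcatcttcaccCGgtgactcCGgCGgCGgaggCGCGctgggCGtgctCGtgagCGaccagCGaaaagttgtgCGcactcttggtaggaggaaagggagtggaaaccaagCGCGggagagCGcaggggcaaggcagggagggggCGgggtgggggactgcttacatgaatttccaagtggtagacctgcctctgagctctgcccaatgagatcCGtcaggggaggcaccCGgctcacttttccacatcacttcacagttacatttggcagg
Cdh12 promoter: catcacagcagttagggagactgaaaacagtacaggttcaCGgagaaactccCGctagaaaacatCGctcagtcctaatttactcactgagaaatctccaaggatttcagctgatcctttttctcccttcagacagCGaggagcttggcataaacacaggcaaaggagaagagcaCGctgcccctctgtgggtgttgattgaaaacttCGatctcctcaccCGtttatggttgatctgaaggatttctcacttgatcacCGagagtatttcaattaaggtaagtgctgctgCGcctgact

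Windows under no peak are shown for contrast. That of Cdh10 (chr15:18820079-18820378, plus strand) has 2 CpG, the fewest of the family, in a gene without any peak. That of Pcdh17 (chr14:84443313-84443612, plus strand) has 26, more than the windows of Pcdh10 and Pcdh18, and no peak covers it, although knockdown 1 had a peak with its summit 2374 bp inside that gene.
Cdh10 promoter: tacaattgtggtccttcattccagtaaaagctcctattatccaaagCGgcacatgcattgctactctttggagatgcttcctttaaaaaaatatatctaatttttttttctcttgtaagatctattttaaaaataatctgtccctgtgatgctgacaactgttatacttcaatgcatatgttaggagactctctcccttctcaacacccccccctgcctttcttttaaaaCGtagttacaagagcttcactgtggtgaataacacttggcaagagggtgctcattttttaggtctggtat
Pcdh17 promoter: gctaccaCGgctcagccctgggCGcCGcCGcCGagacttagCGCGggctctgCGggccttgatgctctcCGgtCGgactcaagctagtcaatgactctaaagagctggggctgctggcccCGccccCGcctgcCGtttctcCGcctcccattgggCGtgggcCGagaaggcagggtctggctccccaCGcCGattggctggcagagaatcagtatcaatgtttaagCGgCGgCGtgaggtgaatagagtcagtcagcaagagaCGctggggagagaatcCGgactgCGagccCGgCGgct

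**Figure D5:**
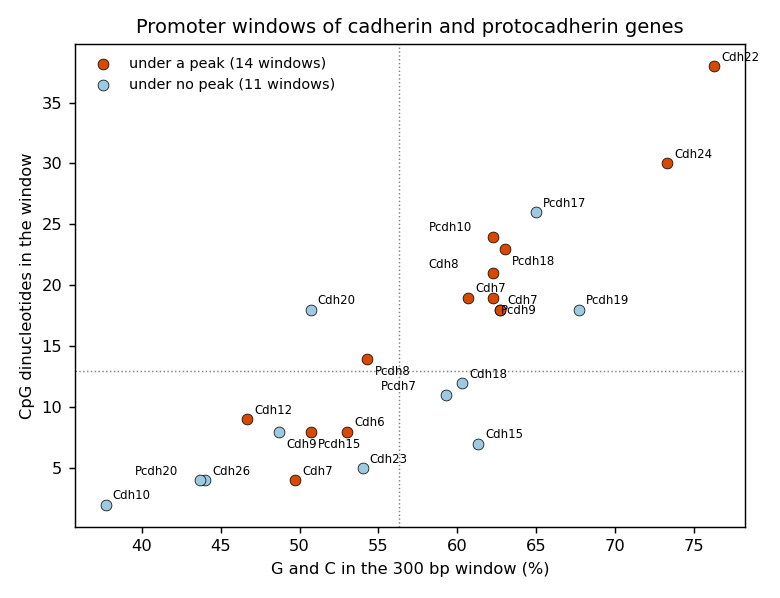
G and C content (percent) and number of CpG dinucleotides in the 25 promoter windows of 22 cadherin and protocadherin genes; dotted lines mark the medians of all promoter windows, 56.3% and 13. Of the windows with at least 13 CpG, 10 of 13 lie under a peak, and of the others 4 of 12.

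Short motifs were searched on both strands, overlaps allowed. CANNTG, the E-box of helix-loop-helix factors, was in 57.1% of the family's windows under a peak, 63.6% of those under none and 69.0% of all promoter windows. GCGGGAA, the core of E2F sites, was in 1 window of the family, that of Cdh22, against 5.95% of all. CTTTGAT, bound by TCF and LEF factors, was in none, against 3.22% of all.

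Few peaks of the family, and few of the whole lists, recurred between knockdown 1 and knockdown size3. Knockdown 1 and knockdown size3 shared 8 regions, 8.16% of the 98 peaks of the one and 12.9% of the 62 of the other, against 9.16% and 11.6% of their whole lists. They lay at Cdh2, Cdh8, Cdh15, Cdh18, Pcdhga12 and Pcdhgc3 and, at 2 places, Cdh23. With summits within 500 bp the number was 4, and with a false discovery rate of at most 5% in both lists it was 3. Another 2 regions, at Cdh4 and Cdh23, were shared by knockdown 1 and control size3, and no other pair of libraries shared one at these genes. At the level of genes, 47 of the 92 (51.1%) and 13 of the 35 outside the clusters (37.1%) had peaks in both knockdown 1 and knockdown size3, against 23.4% of all genes. The 92 include cluster genes that share their peaks, and the 35 have a median span of 123 kb against 17.2 kb. In knockdown 1 and knockdown size3, 77.6% and 68.1% of genes of at least 100 kb had a peak. The 19 members of that length outside the clusters stood at 73.7% and 52.6%. The share of long genes with peaks in both libraries was not counted.

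Median peaks of the family held more reads and were wider than those of their lists in knockdown 1 and knockdown size3. In knockdown 1 the median peak had 64 reads, 1150 bp and a fold of 4.50, against 46 reads, 990 bp and 4.98 over the list. In knockdown size3 it had 24 reads, 835 bp and a fold of 7.04, against 17 reads, 647 bp and 8.10. Cdh23 and Cdh4 weigh on these medians, with 19 and 12 peaks in knockdown 1 and 14 and 11 in knockdown size3. Their knockdown 1 peaks held 47 to 394 and 40 to 258 reads, whereas the 19 of Cdh13 held 17 to 77. Medians without Cdh23 and Cdh4 were not taken, so larger peaks are not shown for the rest of the family. Knockdown 2 stood apart, with 8 to 12 reads per peak, a median width of 340 bp and a false discovery rate of 100% for all 20 peaks. A rate of at most 5% was reached by 97 of 98 peaks in knockdown 1, 30 of 62 in knockdown size3 and none of the 15 in the control libraries. Summits within 1 kb of a gene end made up 8.16% of the family's peaks in knockdown 1, where they were 22.7% of all peaks at genes, and 11.3% in knockdown size3, where they were 19.1%. The rules differ, since family peaks were measured to ends of the 92 genes only and all peaks to the nearest end of any gene touched. The 92 genes are also longer, with a median span of 96.2 kb against 17.2 kb. These shares are therefore not a like comparison, and the part of gene length was not tested.

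Partners and relatives were counted by the same rule, beside 43.7%, 7.95% and 35.5% of all genes in the knockdown libraries and 58.7% in any library. Among genes of at least 100 kb these shares were 77.6%, 30.8% and 68.1%, and 89.5%. Over all genes the median span was 17.2 kb. It was 65.6 kb at catenins and plakophilins, 52.6 kb at the other members of the superfamily and 35.5 kb at desmosomal cadherins. The part of gene length in these counts was not tested. Of 12 catenins and plakophilins, which tie cadherins to the cytoskeleton, 10, 4 and 10 had a peak in the knockdown libraries and 1, 0 and 1 in the control libraries. All 12 had one in any library. Ctnna2, a neural alpha-catenin gene of 1098 kb, had 3 peaks in control 1, as many as all cadherins and protocadherins had there. Regions shared by knockdown 1 and knockdown size3 lay at Ctnnb1, Ctnnd2, Pkp1 and, at 2 places, Pkp3. Of 18 other members of the superfamily, 16, 3 and 12 had a peak in the knockdown libraries and 0, 0 and 2 in the control libraries. In any library 17 of the 18 had one. Shared regions lay at Fat4 and Dchs2, genes of planar polarity, and at Celsr2, Clstn2, Cdhr1 and Cdhr3. The Fat4 region (chromosome 3, 38884877 to 38889912) held 514 reads with a fold of 2.81 in knockdown 1 and 64 reads with a fold of 4.50 in knockdown size3. Of 9 desmosomal cadherins, which hold epithelia together, 2, 2 and 1 had a peak in the knockdown libraries and none in the control libraries, and 4 of 9 had one in any library; the shared region lay at Dsc2.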

How the data were processed

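Peak lists of 6 MACF1 immunoprecipitates were analysed; their 6 inputs enter only through the calls. The submitters' processing notes name cutadapt, Bowtie2, MACS 1.4.2 and the build GRCm38. According to the file headers, MACS compared every immunoprecipitate with the input of the same library, so no libraries were pooled, with 1.00e-05 as the p cutoff and at most 1 read per position. Read counts in the deposited lists are those within a peak. The deposited score is 10 times the negative log10 p, the deposited fold enrichment is a ratio to the local input background, the deposited false discovery rate is a percent from swapping the libraries, and the deposited width and summit are in bp. Wilson intervals cover counting error only.

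Peaks were joined to RefSeq spans of GRCm38.p6 in Python 3.11.15 with pandas 2.3.3, at an overlap of 1 bp. Groups were compared by exact permutation. The joins were tested on simulated data. Genes were named by rule: members with peaks in at least 2 libraries or at the start, the 6 with most peaks, those with the highest fold or score of a library, Cdh2 and Cdh11; a few more were named after their values were seen. The members, lists and tests were chosen with earlier results of these data known. Alternatives changed the window, threshold, list length, members and libraries.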

Additional observations from a re-analysis of the deposited data

How the results depend on the processing

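The difference in the share of the 92 genes with a peak kept its direction in 16 of 17 alternatives. With lists of equal length it turned to -0.362 percentage points. No family peak of knockdown 2 or the controls reached a false discovery rate of at most 5% or a score of at least 100. Of the whole control lists, only 1, 0 and 0 peaks reached that rate. The difference at these thresholds was 35.9 and 12.3 points (exact permutation p = 0.4 for each). At a fold of at least 10 it was 8.70 points (exact permutation p = 0.2). With the labels 1, 2 and size3 as a replicate block it was 52.2 points (exact sign-flip p = 0.25, the smallest that 3 pairs allow), and the block changed no other call. Using libraries 1 and 2 only, chosen after seeing the data, gave 53.8. The difference in the share of each list turned to -0.229 points at a fold of at least 10 and to -0.168 with lists of equal length, and ran from -0.0497 to 0.224 when 1 library was left out; with a false discovery rate of at most 5% it could not be computed, since the lists of control 2 and control size3 were then empty. Shared regions numbered 8, but 4 with summits within 500 bp and 3 at a false discovery rate of at most 5%. Genes with a summit at the start numbered 17, of which 7 have no known start and were counted at either end, and 8 to 17 when 1 library was left out. The cause of these changes was not tested. In knockdown 2 the family's peaks held 8 to 12 reads each, which limits their precision.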

Other observations

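The family's genes without a peak differed in how far the nearest peak lay. Pcdh12, a protocadherin gene of blood vessels on chromosome 18, had the nearest peaks 8.44 kb away in knockdown size3 and 11.9 kb away in knockdown 1, just outside the window used. For Cdh26 they lay 16.3 kb and 22.5 kb away in the same libraries. For Cdh19 the nearest lay 246 kb away in knockdown 2, 677 kb in knockdown 1 and 1897 kb in knockdown size3. For Pcdh11x, on chromosome X, it lay 198 kb away in knockdown 1 and 4822 kb in knockdown size3.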
